A study of Bos taurus with 12 samples.

Results

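The genes described here carry proteins and membrane through the cell, starting at the endoplasmic reticulum (ER) and passing the Golgi and endosomes to the cell surface. They were chosen by gene symbol alone: RAB, SEC, COP, VPS, SNX, ARF, TMED, CNIH, STX, VAMP, SNAP, SYT, TRAPPC and EXOC genes and the subunits of the AP adaptors, each gene read by its brightest probe set on average over all arrays. This gave 190 of the 9155 genes named on the array, on 270 probe sets before that choice. COPS genes, which encode the signalosome, were not members. A choice by letters also takes in a few genes of other function, such as VPS72, a chromatin factor, and SEC14L1, a lipid-binding protein.

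The study measured gene expression in cattle oocytes with 12 Affymetrix bovine arrays, 3 for each of 4 groups. These were metaphase II (MII) oocytes of prepubertal heifers, MII oocytes of adult cows, germinal vesicle (GV) oocytes of prepubertal heifers and GV oocytes of adult cows. The heifers were 9 to 12 months old, and no age is given here for the cows. All oocytes came from follicles of 2 to 8 mm. GV oocytes were taken straight after aspiration, and MII oocytes were chosen by their polar body after 20 to 22 h of maturation in vitro. For each array 50 oocytes, stripped of their cumulus, were pooled and their RNA amplified. The pools are labelled as biological replicates with no animal named, so the tests measure the spread between pools, some of which may be technical. The MII groups thus hold only oocytes that reached metaphase in culture.

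Newly made secretory and membrane proteins enter the ER through the SEC61 channel, leave it in COPII-coated vesicles with the help of cargo receptors, and are returned by COPI-coated vesicles. RAB GTPases give each membrane its identity, tethers such as TRAPP and the exocyst hold an arriving vesicle, and SNARE proteins fuse it with its target. In a mammalian oocyte this traffic supplies the zona pellucida, growth factors and the cortical granules, which move to the cortex during maturation and are released at fertilization.

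Values are log2 signals as deposited, on which a difference of 1 is a 2-fold change. Signals of different probe sets are not amounts of RNA that can be set against each other, so a level is given only as bright or dim against the median of its array (5.64 to 8.30). Each array was scaled to the same total, so less RNA per oocyte and a smaller share of a transcript cannot be told apart. A probe set was tested when its mean over 12 arrays exceeded 5.57, which kept 171 members and 6842 genes. The 19 members left untested included EXOC3, RAB3A, RAB25, SYT1, TMED1 and TRAPPC9. The tests were made with limma, with Benjamini-Hochberg adjustment over 14409 probe sets and a threshold of 0.05.

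Of the 12 arrays, 3 did not show the profile of an oocyte. The median of 9 oocyte genes lay 6.06 to 8.70 above the array median on 9 arrays, but at 0.03 on MII prepubertal replicate 1, -0.36 on GV prepubertal replicate 1 and 0.76 on GV adult replicate 1. The oocyte growth factor BMP15 read 6.55 on MII prepubertal replicate 1, 7.08 on GV prepubertal replicate 1 and 6.47 on GV adult replicate 1, against 14.21 to 15.10 on the other 9. Other oocyte genes had narrower gaps. KIT read 11.48, 11.87 and 11.16 on the same 3 arrays, against 12.86 to 15.07. NLRP5 read 9.51 on GV adult replicate 1, against 9.77 to 13.69 on the 9. The median of 20 cumulus and granulosa genes lay 2.86 above the array median on MII prepubertal replicate 1, 1.83 on GV prepubertal replicate 1 and 0.01 on GV adult replicate 1, against -1.09 to 0.80 on the other 9. These genes were not uniform: STAR read 8.74, 5.10 and 4.91 on these 3 arrays, against a higher 11.56 to 13.58 on the 9. The corresponding theca and stroma medians over 12 genes were 2.93, 1.57 and 0.40, against -1.37 to 0.45. The array held 9 of 17 listed oocyte genes, 20 of 22 listed for cumulus and granulosa and 12 of 12 listed for theca and stroma. GV adult replicate 1 was unlike every other array, with a highest Spearman correlation of 0.27, against 0.50 to 0.79 for the others. The part of cumulus, theca or stroma RNA in the differences below was not tested. The differences of most named members and the class counts are therefore given over the 12 arrays and over the 9 arrays with an oocyte profile, while levels, counts of groups without overlap and the agreement of probe sets are given over the 9 alone. The 9 arrays leave 2 pools of MII prepubertal, 3 of MII adult, 2 of GV prepubertal and 2 of GV adult oocytes. In each list of values, replicate 1 comes first.

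Over the 9 oocyte arrays, 7 members stayed above 12 log2 units on every array: CNIH4, ARF4, SEC61A2, RAB11A, VAMP3, VPS29 and TMED7. That is 3.68% of the members, beside 3.11% of all genes, and none of the 7 is a COPII, TRAPP or exocyst gene. The median standard deviation (SD) of a member over these 9 arrays was 1.58, beside 1.49 for all genes. Signals of 6 members varied by an SD under 0.5 (3.16% of members, beside 2.48% of genes), namely TMED7, RAB35, SEC61G, COPB1, VAMP3 and SEC61B. At the other end, 51 members had an SD above 2 (26.8%, beside 29.5% of genes). The widest was VPS4A, the ATPase that takes apart ESCRT filaments, with an SD of 3.67.

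SEC61A2, a form of the pore-lining subunit of the SEC61 channel, had 12.30, 13.96 and 13.63 in MII prepubertal pools, 13.13, 13.12 and 14.42 in MII adult pools, 10.45, 14.29 and 14.09 in GV prepubertal pools and 10.43, 14.41 and 13.40 in GV adult pools. Over all 12 arrays the groups overlapped, and the lowest values were those of the 3 arrays without an oocyte profile. SEC16B, a scaffold of the ER exit sites where COPII vesicles bud, had 5.84, 12.67 and 12.59 in MII prepubertal pools, 12.04, 11.98 and 13.14 in MII adult pools, 7.48, 12.84 and 12.59 in GV prepubertal pools and 8.46, 13.70 and 12.15 in GV adult pools. Its signal was 11.98 to 13.70 on the 9 oocyte arrays and 5.84 to 8.46 on the other 3.

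TMED7, a p24-family receptor that carries cargo between ER and Golgi, had 12.38, 12.57 and 12.63 in MII prepubertal pools, 12.77, 12.22 and 13.22 in MII adult pools, 12.72, 12.36 and 12.49 in GV prepubertal pools and 10.09, 13.39 and 12.82 in GV adult pools. With a mean of 12.72 and an SD of 0.38 over the 9 oocyte arrays, it was the steadiest of the members. ARF4, a small GTPase that recruits coats at the Golgi, had 13.78, 14.36 and 14.51 in MII prepubertal pools, 14.43, 14.15 and 15.81 in MII adult pools, 13.77, 14.32 and 13.89 in GV prepubertal pools and 7.68, 14.80 and 14.46 in GV adult pools. Both prepubertal arrays without an oocyte profile lay just below the lowest oocyte array (13.89), and GV adult replicate 1 stood far below all of them.

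RAB11A, the GTPase of recycling endosomes, had 13.26, 13.69 and 13.99 in MII prepubertal pools, 13.82, 14.07 and 12.95 in MII adult pools, 13.06, 13.11 and 13.77 in GV prepubertal pools and 9.88, 13.85 and 14.72 in GV adult pools. VAMP3, a SNARE of the same recycling vesicles, had 13.27, 13.47 and 13.19 in MII prepubertal pools, 13.64, 13.56 and 13.97 in MII adult pools, 12.00, 13.35 and 14.76 in GV prepubertal pools and 8.39, 13.61 and 13.74 in GV adult pools. On the oocyte arrays the prepubertal pools lay below the adult pools at GV for RAB11A and at MII for VAMP3, and the groups overlapped in the other 3 comparisons of each gene. RAB3IP, which activates RAB8 on vesicles bound for the surface, read 11.47 to 12.55 in MII pools and 10.99 to 12.60 in GV pools with an oocyte profile, against 5.77 to 7.53 on the other 3 arrays. The brightest members of the other classes over the 9 oocyte arrays were VPS29 at 13.11, SNX9 at 12.61, AP3S1 at 11.95, EXOC5 at 11.38, TRAPPC2 at 10.72, SYTL2 at 10.58 and SEC14L1 at 9.11.

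**Figure D1:**
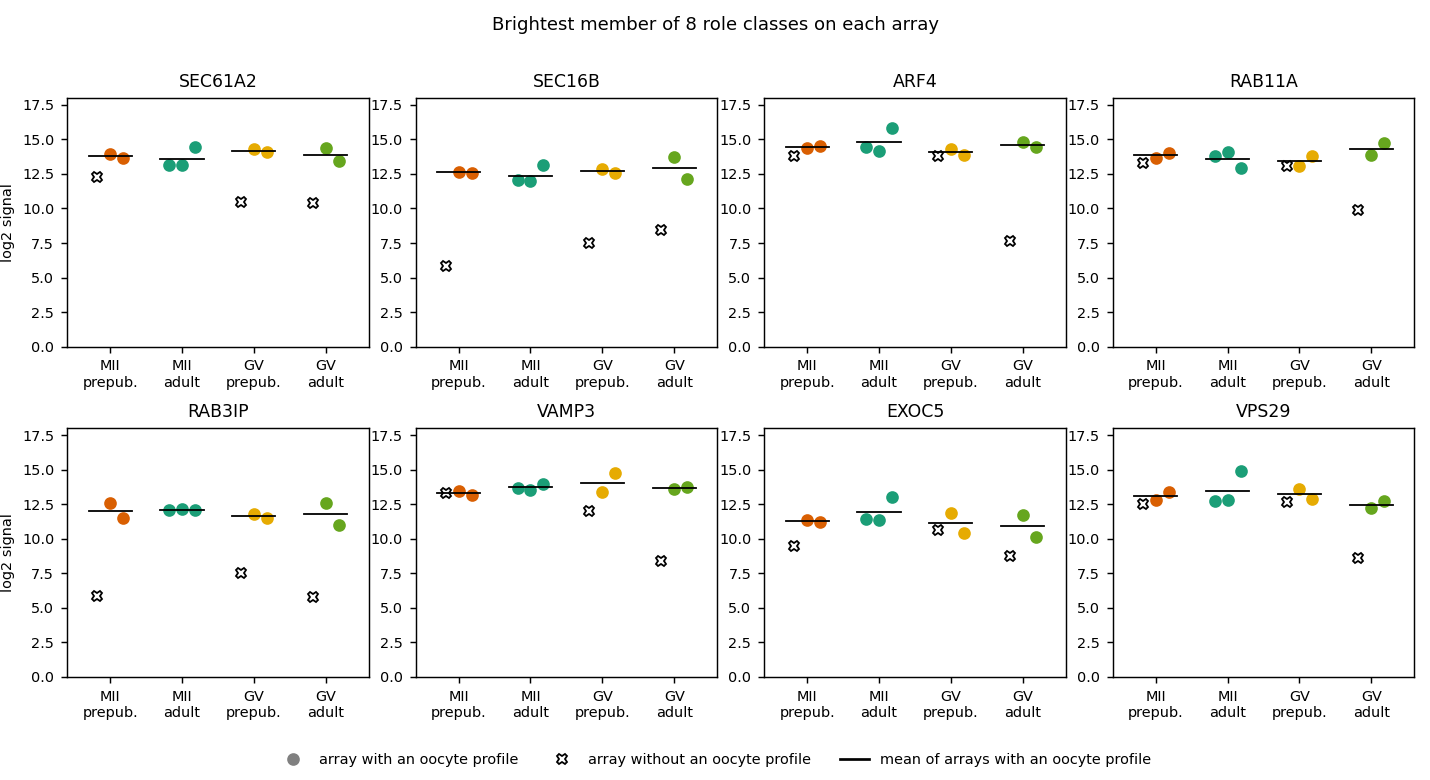
Log2 signal (vertical axis) of the brightest member of 8 role classes in each pool, grouped by stage and age; filled points are the 9 arrays with an oocyte profile, open crosses the 3 without one, and lines the means of the filled points. The filled points run from 11.98 to 13.70 for SEC16B, and more widely from 12.20 to 14.88 for VPS29 and 10.13 to 13.03 for EXOC5. SEC16B (5.84 to 8.46) and RAB3IP (5.77 to 7.53) are low on all 3 crossed arrays, and ARF4 is far below on GV adult replicate 1 alone.

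CNIH4, a cornichon protein that in human cells escorts receptors out of the ER, gave the clearest difference between stages. Its signal was 13.99, 14.19 and 13.89 in MII prepubertal pools, 13.53, 13.16 and 12.50 in MII adult pools, 14.27, 15.93 and 16.22 in GV prepubertal pools and 8.43, 16.11 and 16.35 in GV adult pools. On the oocyte arrays every MII pool was below every GV pool at both ages. In adult oocytes the 9 arrays gave 13.06 ± 0.52 at MII (SD, n = 3) and 16.23 ± 0.17 at GV (SD, n = 2), a difference of -3.17 (SE 0.37; limma adjusted p = 0.00574). CNIH4 was the only member past the threshold, 1 of 171 (0.585%), beside 9 of 6842 genes (0.132%) and 17 of 14409 probe sets (0.118%).

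That call was made over the 9 arrays and not over all 12. Leaving out GV adult replicate 1 alone gave the same difference of -3.17 but no call (limma adjusted p = 0.317). Over all 12 arrays GV adult averaged 13.63 ± 4.51 (SD, n = 3), because of the 8.43 of replicate 1, and the difference was -0.57 (SE 1.73; limma adjusted p = 0.924). Over the 9 arrays CNIH4 stayed past the threshold when any 1 of them was left out, with differences of -3.40 to -2.89 and limma adjusted p of 0.00227 to 0.0366. It was also past it after quantile normalization of the 9 arrays (-2.80, limma adjusted p = 0.0147) but not after median centring of them (-3.07, limma adjusted p = 0.278). Over all 34 alternatives the adjusted p ran between 0.00227 and 0.982. CNIH4 was given as the marker of these genes with earlier results of the same arrays known, so its call is not independent evidence.

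In prepubertal oocytes CNIH4 averaged 14.04 ± 0.21 at MII and 16.07 ± 0.21 at GV over the oocyte arrays (SD, n = 2 each). The difference of -2.04 (SE 0.40) did not pass the threshold over the 9 arrays (limma adjusted p = 0.536), nor did the -1.45 (SE 1.73) over 12 (limma adjusted p = 0.999). It passed in 1 of 9 fits with a further array left out, the one without MII adult replicate 3 (limma adjusted p = 0.0459). The 2 maturation differences were not shown to differ between ages: the interaction was 1.13 (SE 0.55; limma adjusted p = 0.999) over 9 arrays and -0.89 (SE 2.45) over 12. At MII the prepubertal pools were 0.97 above the adult pools over the 9 arrays (SE 0.37; limma unadjusted p = 0.0184, adjusted p over 0.999), without overlap.

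The array carried 3 probe sets for CNIH4. The second had 13.44, 13.84 and 13.94 in MII prepubertal pools, 13.38, 13.45 and 13.33 in MII adult pools, 12.91, 14.64 and 15.38 in GV prepubertal pools and 7.20, 14.19 and 15.05 in GV adult pools. It too was lower in every MII pool than in every GV pool with an oocyte profile, but by less: -1.23 (SE 0.41; limma unadjusted p = 0.0084, adjusted p = 0.238) in adult oocytes and -1.12 (SE 0.44) in prepubertal oocytes. The third was dim, with a mean of 3.80, and was not tested. The size of the CNIH4 difference thus depended on the probe set, and its direction did not between the first and second.

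CNIH1, the other cornichon gene on the array, which in flies exports a growth factor from the ER, had 9.08, 9.71 and 9.71 in MII prepubertal pools, 9.08, 9.58 and 7.38 in MII adult pools, 10.21, 10.67 and 10.63 in GV prepubertal pools and 6.32, 10.28 and 10.58 in GV adult pools. On the oocyte arrays each MII pool was again below each GV pool of the same age. The differences did not pass the test, at -1.75 (SE 0.97) in adult and -0.94 (SE 1.07) in prepubertal oocytes over 9 arrays. Over 12 arrays they were -0.38 and -1.01 (SE 1.20 for both).

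**Figure D2:**
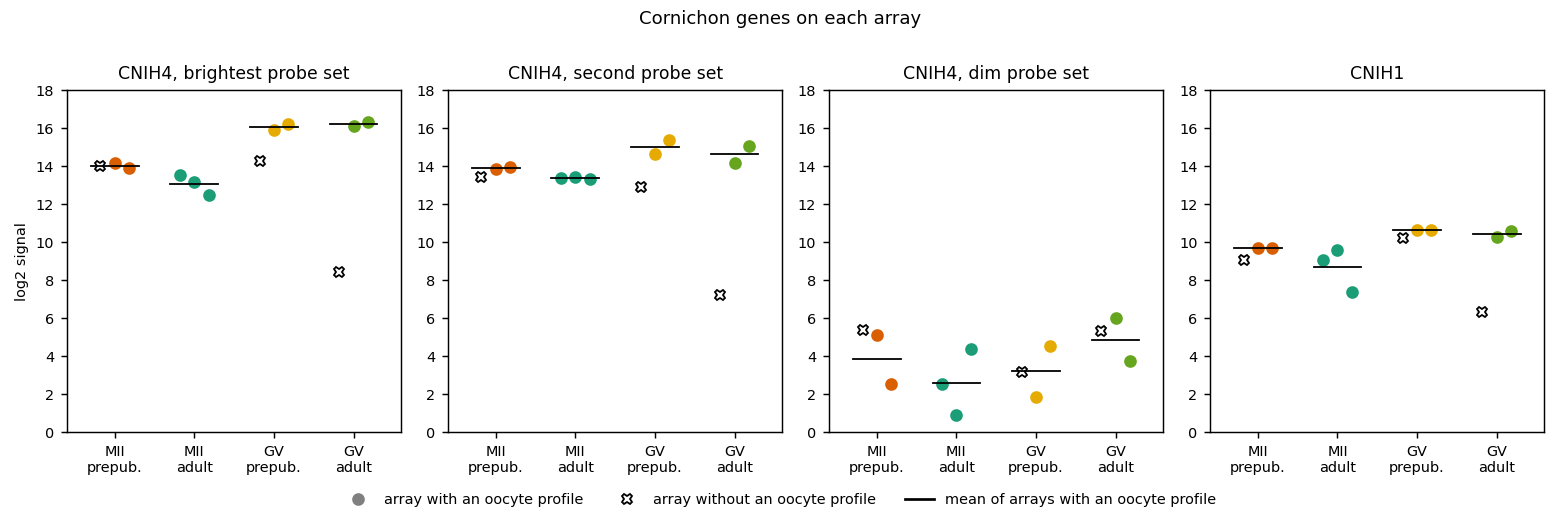
Log2 signal (vertical axis) of the 3 CNIH4 probe sets and of CNIH1 in each pool, by stage and age; filled points are arrays with an oocyte profile, open crosses those without one, and lines the means of the filled points. The filled MII points of both bright CNIH4 probe sets lie below the filled GV points at both ages, and GV adult replicate 1 reads 8.43 and 7.20.

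Beyond CNIH4, the comparisons of age and stage gave no call among the members. Over 12 arrays 0 of 14409 probe sets passed the limma threshold in any comparison, members included, with 362 probe sets at an unadjusted p under 0.05 for age at GV, 383 for age at MII, 492 for maturation in prepubertal oocytes, 1143 for maturation in adult oocytes and 174 for the interaction. The smallest limma adjusted p of a member other than CNIH4 over the 9 arrays was 0.201, in adult maturation.

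In adult maturation the members with an unadjusted p under 0.05 lay more on the higher side than genes did, as a description. Over the 9 arrays there were 26 such members, 15.2% of 171 beside 12% of genes, 18 of them higher at MII (10.5%, beside 5.66%) and 8 lower (4.68%, beside 6.36%). Over 12 arrays there were 14, or 8.19% beside 7.32%. The median MII minus GV difference of the members was 0.12 over 9 arrays, beside -0.11 for all genes, and 0.35 beside -0.01 over 12. Of 171 members 91 were higher at MII over 9 arrays (53.2%) and 101 over 12 (59.1%). With gene medians below 0, no more genes were higher than lower. Without overlap between MII adult and GV adult pools, 31 members were higher (18.1%, beside 13.3% of genes) and 23 lower (13.5%, beside 15.5%) on the 9 arrays.

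Maturation in prepubertal oocytes set the members no further apart than other genes. Over the 9 arrays 5 members had an unadjusted p under 0.05 (2.92%, beside 6.74% of genes), and over 12 arrays 2 (1.17%, beside 2.48%). The median difference was -0.06 beside -0.13 over 9 arrays and -0.10 beside -0.28 over 12. On the 9 arrays the pools of both stages did not overlap for 34 members that were higher at MII (19.9%, beside 18.9%) and 38 that were lower (22.2%, beside 21.9%).

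For donor age at GV, 11 members had an unadjusted p under 0.05 over the 9 arrays (6.43%, beside 4.28% of genes) and 7 over 12 (4.09%, beside 2.57%). The median prepubertal minus adult difference was 0.29 beside 0.18 over 9 arrays and 0.64 beside 0.40 over 12. On the 9 arrays 40 members were higher in prepubertal pools without overlap (23.4%, beside 16.1%) and 17 lower (9.94%, beside 11.3%). For donor age at MII the unadjusted counts were 7 over 9 arrays (4.09%, beside 2.6%) and 7 over 12 (4.09%, beside 3.04%), with medians of 0.23 beside 0.20 and 0.05 beside 0.08. There, 25 members were higher in prepubertal pools without overlap (14.6%, beside 12%) and 10 lower (5.85%, beside 8.07%). For the interaction the counts were 6 over 9 arrays (3.51%, beside 2.76%) and 1 over 12 (0.585%, beside 1.01%).

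**Figure D3:**
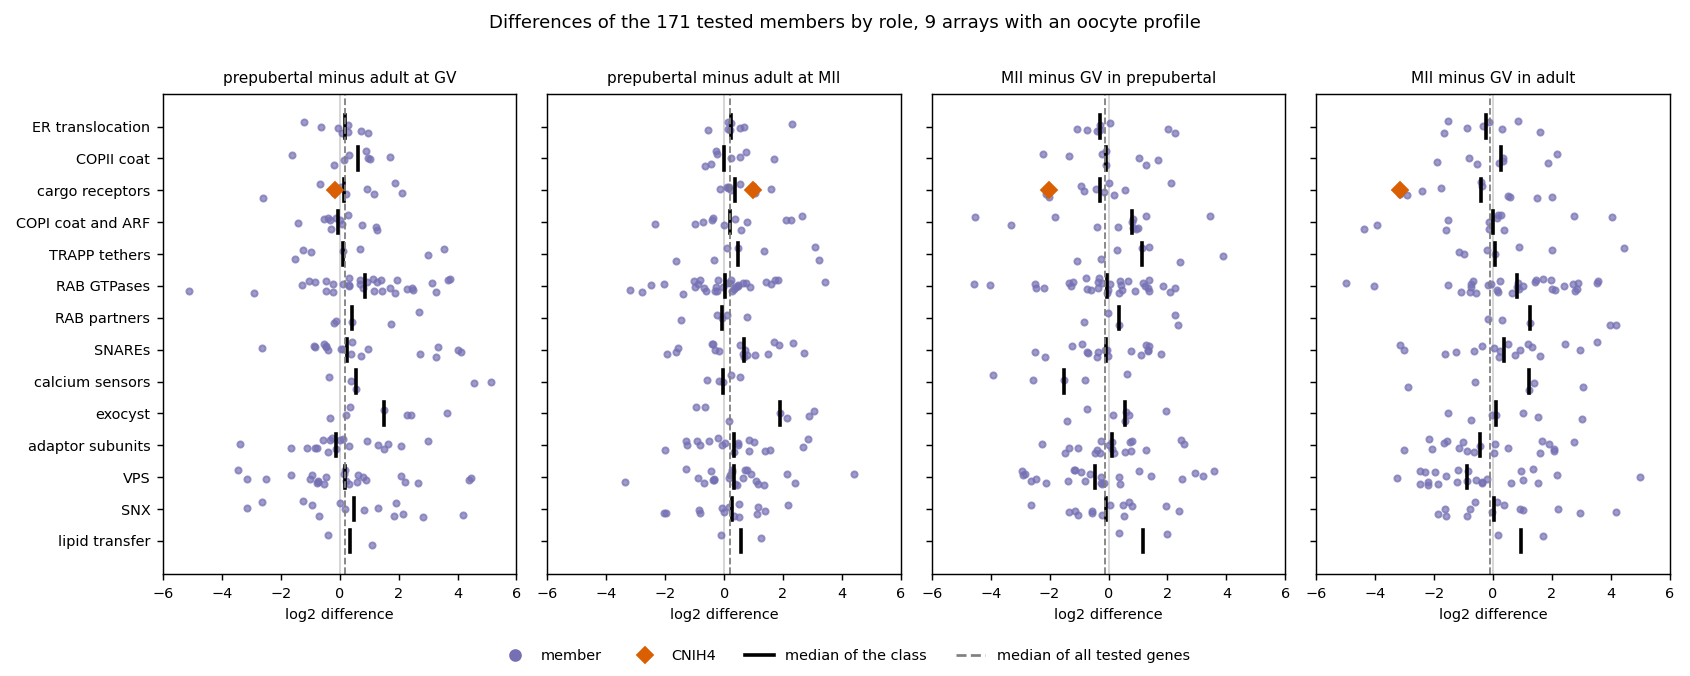
Log2 difference (horizontal axis) of each of the 171 tested members over the 9 oocyte arrays, by role (rows) and comparison (panels); points are members, the diamond is CNIH4, black bars are class medians and dashed lines the median of all tested genes. The RAB GTPases centre above the dashed line in adult maturation (0.82) and the VPS genes below it (-0.87), with wide spread in both.

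No coat member passed the threshold, and the class medians depended on the arrays used. In adult maturation over the 9 arrays 5 of 8 COPII members were higher at MII with a median of 0.27, and 6 of 12 COPI and ARF members were higher with a median of 0.00. The ER translocation genes had 3 of 8 higher and a median of -0.24. All genes had a median of -0.11 over the 9 arrays and -0.01 over 12. Over 12 arrays 5 of 8 COPII members were higher with a median of 1.10, 9 of 12 COPI and ARF members with a median of 1.02 and 7 of 8 ER translocation genes with a median of 0.84. ARF5, a Golgi ARF, had 4.26, 7.22 and 8.24 in MII prepubertal pools, 5.87, 6.19 and 8.80 in MII adult pools, 5.55, 4.12 and 4.45 in GV prepubertal pools and 9.56, 5.65 and 2.79 in GV adult pools. On the oocyte arrays its prepubertal pools did not overlap between stages, at 3.45 higher in MII (SE 1.69; limma unadjusted p = 0.0598), while over 12 arrays they did overlap, with a difference of 1.87. The 4.12 and 4.45 of the GV prepubertal oocyte arrays lay below their array medians (7.52 and 5.65). COPZ2, a COPI subunit, had 5.89, 1.75 and 5.77 in MII prepubertal pools, 4.37, 2.41 and 7.49 in MII adult pools, 8.61, 6.40 and 10.20 in GV prepubertal pools and 4.14, 7.65 and 9.75 in GV adult pools. Its MII minus GV difference in prepubertal oocytes was -4.54 (SE 2.04; limma unadjusted p = 0.0423) over 9 arrays and -3.93 (SE 1.82) over 12, where the groups also did not overlap. The 1.75 of MII prepubertal replicate 2 lay far below its array median (5.93). A second probe set of COPZ2, too dim to be tested, went the other way, with a difference of 1.33 over the 9 arrays.

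The cargo receptors tended to read higher in prepubertal MII pools than in adult ones, 9 of 10 with a median of 0.38 over the 9 arrays, beside 57.4% of genes higher and a gene median of 0.20. Over 12 arrays 8 of 10 were higher, beside 52.3% of genes. Of the 10, only CNIH4 had an unadjusted p under 0.05 at MII over the 9 arrays, beside 2.6% of genes. For age at GV 6 of 10 cargo receptors were higher over the 9 arrays, with a median of 0.13. There 56.3% of genes were higher, with a gene median of 0.18. Over 12 arrays 8 of 10 were higher at GV with a median of 1.25, beside 62.2% of genes and a gene median of 0.40. TRAPPC3, a core subunit of the TRAPP tether, had 9.06, 10.82 and 10.10 in MII prepubertal pools, 9.15, 9.21 and 3.74 in MII adult pools, 8.23, 5.68 and 7.50 in GV prepubertal pools and 6.27, 4.73 and 8.20 in GV adult pools. All 3 prepubertal MII pools were above all 3 prepubertal GV pools, with a difference of 3.87 (SE 1.86; limma unadjusted p = 0.0555) over 9 arrays and 2.85 (SE 1.52) over 12.

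The RAB GTPases were the largest class, with 39 genes, 32 of them tested, and no member past the threshold. In adult maturation 21 of 32 were higher at MII over the 9 arrays with a median of 0.82, and 20 of 32 over 12 arrays with a median of 0.68. For age at GV, 23 of 32 were higher in prepubertal pools over the 9 arrays with a median of 0.86, and 24 of 32 over 12 with a median of 0.71. The medians of all genes in adult maturation were -0.11 over 9 arrays and -0.01 over 12. There 53.2% of all tested members were higher at MII over 9 arrays and 59.1% over 12. For age at GV 56.3% of all genes were higher over 9 arrays and 62.2% over 12, with medians of 0.18 and 0.40. Both comparisons use the same GV adult pools, so they are not separate observations. At MII 16 of 32 RAB GTPases were higher in prepubertal pools over the 9 arrays, with a median of 0.03, beside 57.4% of genes. Over 12 arrays 13 of 32 were higher, with a median of -0.17, beside 52.3%.

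RAB22A, a GTPase of early endosomes, had 11.32, 12.16 and 12.22 in MII prepubertal pools, 11.90, 11.89 and 10.57 in MII adult pools, 10.12, 12.25 and 11.45 in GV prepubertal pools and 7.29, 10.01 and 7.46 in GV adult pools. GV adult was the low group, below all other pools on all 12 arrays. MII adult was 2.72 above GV adult over the 9 arrays (SE 0.87; limma unadjusted p = 0.00719) and 3.20 over 12 (SE 1.10; limma adjusted p = 0.563). GV prepubertal was 3.12 above GV adult over the 9 arrays (SE 0.96; limma unadjusted p = 0.00533, adjusted p = 0.997) and 3.02 over 12 (SE 1.10). A second, dimmer probe set of RAB22A did not show this, with a GV age difference of -0.36 (limma unadjusted p = 0.811) and an adult maturation difference of 1.56 (limma unadjusted p = 0.26) over the 9 arrays.

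RAB33B, a Golgi GTPase with a role in autophagy, went the other way. It had 7.24, 5.16 and 5.25 in MII prepubertal pools, 4.13, 4.75 and 5.78 in MII adult pools, 8.65, 7.76 and 1.76 in GV prepubertal pools and 4.37, 10.83 and 8.92 in GV adult pools. GV adult was high on its 2 oocyte arrays, and MII adult was 4.99 below it (limma difference -4.99, SE 1.73, unadjusted p = 0.0115) but overlapped it over 12 arrays (-3.16, SE 1.88). The prepubertal minus adult difference at GV, -5.12 (SE 1.89) over 9 arrays and -1.99 (SE 1.88) over 12, moved with GV prepubertal replicate 3: without that pool it was -2.12 over the remaining oocyte arrays and 0.16 over the other 11. The 1.76 of that pool and all MII adult values lay below their array medians.

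RAB12, which sends receptors from recycling endosomes to lysosomes, had age differences of opposite sign at the 2 stages on the oocyte arrays. It had 13.41, 6.34 and 5.05 in MII prepubertal pools, 8.83, 9.63 and 8.22 in MII adult pools, 13.09, 10.56 and 8.88 in GV prepubertal pools and 9.94, 5.97 and 6.97 in GV adult pools. Both prepubertal replicate 1 arrays, which lacked an oocyte profile, carried the highest values. Over the 9 arrays the MII minus GV difference was -4.03 (SE 1.34; limma unadjusted p = 0.00888) in prepubertal oocytes and 2.42 in adult oocytes, and the interaction of -6.45 had a limma unadjusted p of 0.0029 and an adjusted p of 0.999. At MII the prepubertal minus adult difference was -3.20 (SE 1.22) over 9 arrays and -0.63 (SE 1.75) over 12.

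RAB7B, which moves cargo between endosomes and the Golgi, had 6.43, 6.04 and 7.81 in MII prepubertal pools, 3.06, 4.70 and 2.74 in MII adult pools, 6.87, 6.06 and 6.95 in GV prepubertal pools and 8.95, 7.63 and 7.45 in GV adult pools. MII adult was the low group, below every other pool on all 12 arrays, though at levels under the array median. Its difference from GV adult was -4.51 over 12 arrays (SE 1.36; limma unadjusted p = 0.00353, adjusted p = 0.563) and -4.04 over 9 (SE 1.45). MII prepubertal was 3.42 above MII adult over 9 arrays (SE 1.45; limma unadjusted p = 0.0326) and 3.26 over 12 (SE 1.36).

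RAB4A, of the fast recycling route from early endosomes, had 8.52, 7.55 and 8.54 in MII prepubertal pools, 8.39, 8.97 and 7.41 in MII adult pools, 10.73, 10.93 and 10.12 in GV prepubertal pools and 9.49, 8.22 and 5.47 in GV adult pools. GV prepubertal was above all other groups on all 12 arrays, and 3.68 above GV adult over the 9 (SE 1.33; limma unadjusted p = 0.0144) and 2.87 over 12 (SE 1.18). Its paralog RAB4B was lower in MII prepubertal than in MII adult oocytes over 9 arrays, by a limma difference of -2.80 (SE 1.29, unadjusted p = 0.0462), but overlapped over 12 (-1.61). RAB31, of the route between Golgi and endosomes, had a difference of -2.47 (SE 1.45) between MII prepubertal and MII adult pools over 9 arrays and -2.39 over 12, without overlap in either.

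The 5 RAB partners had 4 higher at MII in adult oocytes over the 9 arrays, with a median of 1.24 beside -0.11 for all genes. Over 12 arrays 5 were higher. RAB3GAP2, a subunit of the complex that acts on RAB3 and RAB18, had 6.80, 7.91 and 8.24 in MII prepubertal pools, 7.17, 7.97 and 8.76 in MII adult pools, 4.27, 7.62 and 3.85 in GV prepubertal pools and 6.55, 4.30 and 3.66 in GV adult pools. All MII adult pools were above all GV adult pools, by 3.99 over 9 arrays (SE 1.45; limma unadjusted p = 0.0149) and 3.13 over 12 (SE 1.46; limma adjusted p = 0.619). The GV adult values lay below their array medians.

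At the fusion step the SNAREs had 12 of 18 members higher at MII in adult oocytes over the 9 arrays with a median of 0.37. For age at GV the SNAREs had 11 of 18 higher in prepubertal pools with a median of 0.24. Over 12 arrays these counts were 10 of 18 with a median of 0.37 and 15 of 18 with a median of 0.30. For age at GV 56.3% of all genes were higher over 9 arrays and 62.2% over 12, with medians of 0.18 and 0.40. In adult maturation the gene medians were -0.11 and -0.01, and 53.2% and 59.1% of all tested members were higher. The 5 tested synaptotagmin-family members split 3 higher and 2 lower in adult maturation, and 1 higher and 4 lower in prepubertal maturation over the 9 arrays, against 3 and 2, and 0 and 5, over 12. In prepubertal maturation 82 of 171 members were higher over the 9 arrays and 80 over 12, with gene medians of -0.13 and -0.28. SYT11, a synaptotagmin that does not bind calcium, had 8.87, 9.05 and 6.78 in MII prepubertal pools, 7.77, 7.45 and 6.89 in MII adult pools, 10.05, 8.88 and 9.99 in GV prepubertal pools and 10.91, 6.11 and 2.50 in GV adult pools. GV prepubertal was 5.13 above GV adult over the 9 arrays (SE 1.55; limma unadjusted p = 0.00478), while over 12 arrays the groups overlapped through the 10.91 of GV adult replicate 1, with a difference of 3.13 (SE 1.61). The 6.11 and 2.50 of the GV adult oocyte arrays lay below their array medians (6.28 and 6.23).

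The exocyst, which tethers secretory vesicles to the plasma membrane, had 8 members, 7 of them tested. Prepubertal values were higher than adult ones in 6 of 7 at GV (median 1.51) and in 5 of 7 at MII (median 1.88) over the 9 arrays, beside 56.3% and 57.4% of genes. Over 12 arrays the counts were 7 of 7 and 4 of 7, beside 62.2% and 52.3% of genes. In adult maturation 4 of 7 were higher at MII over the 9 arrays, with a median of 0.09 beside a gene median of -0.11. EXOC8, a subunit that binds the GTPase RALA, had 12.85, 12.12 and 12.46 in MII prepubertal pools, 10.47, 11.49 and 6.32 in MII adult pools, 10.96, 11.52 and 11.91 in GV prepubertal pools and 5.40, 9.20 and 9.68 in GV adult pools. Every prepubertal pool was above every adult pool of its stage on all 12 arrays. The difference at MII was 2.87 over 9 arrays (SE 1.21; limma unadjusted p = 0.0318) and 3.05 over 12 (SE 1.36; limma adjusted p over 0.999), and at GV 2.27 and 3.37. With MII adult replicate 3 (6.32) left out, the EXOC8 difference at MII was 1.3 from the 9 arrays and 1.5 from the 12. The MII age difference over the 9 arrays was 2.13 for EXOC1, 1.88 for EXOC2, -0.65 for EXOC5, 0.16 for EXOC6, 3.04 for EXOC7 and -0.96 for EXOC3L1. The exocyst genes thus did not share 1 direction.

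The VPS genes, which serve endosomes, lysosomes and retrieval to the Golgi, read lower at MII in adult oocytes in 17 of 24 members over the 9 arrays with a median of -0.87, and in 14 of 24 over 12 arrays with a median of -0.81. The medians of all genes in this comparison were -0.11 over 9 arrays and -0.01 over 12. Of all 171 tested members 80 were lower over 9 arrays and 70 over 12. For age over the 9 arrays, prepubertal values were higher in 13 of 24 VPS genes at GV and 16 of 24 at MII. The shares of all genes there were 56.3% and 57.4%. None of the VPS genes passed the threshold. In adult maturation over the 9 arrays 1 of 24 had an unadjusted p under 0.05 in each direction. The shares of all genes were 5.66% higher and 6.36% lower. The one on the higher side was VPS25, a subunit of ESCRT-II, with 8.37, 10.71 and 10.54 in MII prepubertal pools, 8.81, 8.18 and 12.18 in MII adult pools, 9.31, 8.73 and 9.63 in GV prepubertal pools and 8.37, 7.24 and 2.24 in GV adult pools. Its adult difference was 4.99 over 9 arrays (SE 1.52; limma unadjusted p = 0.00518), where the 2.24 of GV adult replicate 3 stood far below the other pools, and 3.78 over 12 (SE 1.49; limma adjusted p = 0.589). A second probe set of VPS25, too dim to be tested, had an adult difference of 0.45 over the 9 arrays. VPS33B, which partners with SNAREs in endosome fusion, had 3.15 lower values in GV prepubertal than in GV adult pools over 9 arrays (limma difference -3.15, SE 1.75), and a difference of -2.45 over 12. The second tested probe set of VPS33B differed by -6.69 over the 9 arrays (limma unadjusted p = 0.00455) and did not pass the threshold.

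The retromer, which retrieves receptors out of endosomes, had subunits with differences of either sign. VPS29 had 12.48, 12.80 and 13.41 in MII prepubertal pools, 12.71, 12.77 and 14.88 in MII adult pools, 12.64, 13.59 and 12.90 in GV prepubertal pools and 8.57, 12.20 and 12.70 in GV adult pools. VPS26A, its cargo-side subunit, had 12.44, 9.78 and 10.88 in MII prepubertal pools, 9.80, 10.69 and 11.81 in MII adult pools, 12.22, 4.88 and 8.62 in GV prepubertal pools and 5.99, 9.58 and 8.92 in GV adult pools. VPS26A was 3.58 higher at MII in prepubertal oocytes over the 9 arrays (SE 1.31; limma unadjusted p = 0.0154) and 2.46 over 12, and its age difference at GV changed sign, -2.50 over 9 arrays and 0.41 over 12. The other 2 tested probe sets of VPS26A differed by 1.02 (limma unadjusted p = 0.503) and 0.07 (limma unadjusted p = 0.966) in prepubertal maturation over the 9 arrays, and by -1.12 and 1.24 for age at GV. VPS35 differed by -0.82 in prepubertal and -0.36 in adult maturation over the 9 arrays, and by -0.73 and 0.90 over 12.

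The sorting nexins had 7 of 14 members higher at MII in adult oocytes and a median of 0.04 over the 9 arrays, with the same count and median over 12. SNX9, which works with dynamin at the plasma membrane, read 12.53 to 13.21 in MII pools and 11.57 to 13.92 in GV pools with an oocyte profile, and 8.90 to 10.39 on the 3 other arrays. SNX6 was called in adult maturation in a single fit, that without GV adult replicate 3 among the 9 arrays (8.61, SE 1.25; limma adjusted p = 0.0215). Its 2 GV adult oocyte pools read 2.43 and 11.32, so that fit compared MII with the lower one alone. The adaptor subunits had 9 of 19 higher in adult maturation over both sets of arrays, with a median of -0.44 over the 9 and -0.41 over the 12. Gene medians in adult maturation were -0.11 over 9 arrays and -0.01 over 12. Of all tested members 53.2% and 59.1% were higher.

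**Figure D4:**
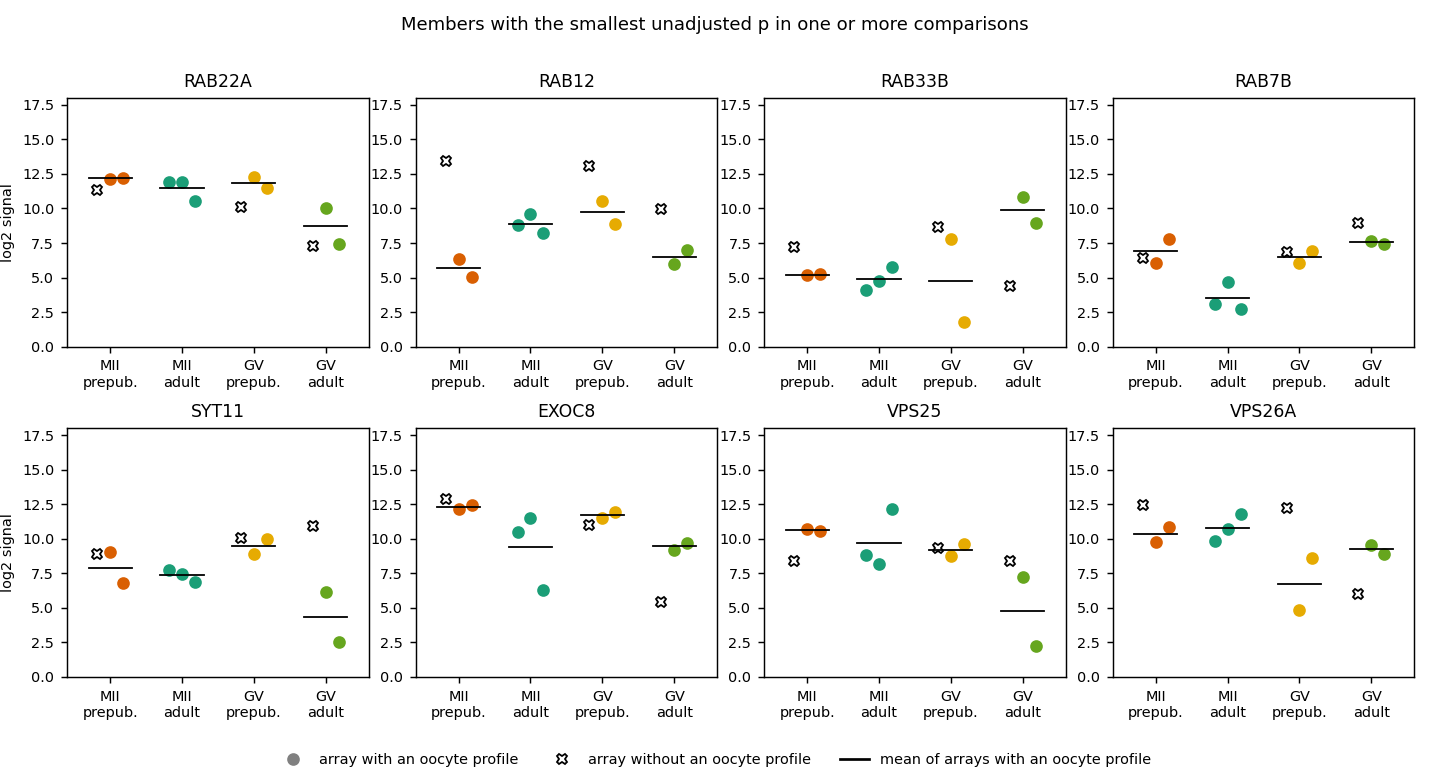
Log2 signal (vertical axis) of 8 members with small unadjusted p in at least 1 comparison, in each pool by stage and age; filled points are arrays with an oocyte profile, open crosses those without one, and lines the means of the filled points. GV adult is low for RAB22A, MII adult is low for RAB7B, and each EXOC8 prepubertal pool lies above the adult pools of its stage.

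Other genes of the same routes, 114 listed of which 87 were on the array and 81 tested, gave no call in any comparison. In adult maturation 37 were higher and 44 lower at MII over the 9 arrays, with a median of -0.15 beside -0.11 for all genes. Of the 81, 2 higher and 8 lower genes had a limma unadjusted p under 0.05, beside 5.66% and 6.36% of all genes. Over 12 arrays 38 were higher and 43 lower, with a median of -0.24. CLTA, a clathrin light chain, had the smallest of these, with a difference of -2.84 (SE 0.65; limma unadjusted p = 0.00056, adjusted p = 0.111) in adult and -2.03 in prepubertal oocytes. STXBP2, which binds syntaxins before fusion, differed by -5.33 in adult and -4.38 in prepubertal oocytes, SAR1B, the GTPase that starts a COPII coat, by -3.75 in adult oocytes, and KDELR1, which returns ER residents, by 3.16. Over 12 arrays the adult differences were -0.98 for CLTA, -4.27 for STXBP2, -3.41 for SAR1B and 2.01 for KDELR1. These 4 were named after their values were seen.

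Several probe sets of a member often disagreed. Of the 48 members with at least 2 tested probe sets, all pointed the same way over the 9 arrays in 24 for adult maturation (50%, beside 48.3% of genes), 27 for prepubertal maturation (56.2%, beside 49.7%), 22 for age at GV (45.8%, beside 49.3%) and 17 for age at MII (35.4%, beside 48.3%). A direction read from 1 probe set of a gene is therefore limited to that probe set.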

How the data were processed

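The deposited values were log2 signals of 24128 probe sets on 12 arrays. The authors made them with MAS5, per the submitters' processing notes; the sources used here do not give its version. The linear mean without the lowest and highest 2% was 500 on every array, so no further scaling was applied. After 112 control probe sets were left out, those with a mean above the 40th percentile (5.57) were tested. Symbols came from the platform annotation (13292 probe sets with 1, 86 with several, 10638 with none), and 99.8% of Entrez identifiers matched current cattle genes. R 4.3.3 and limma 3.58.1 estimated the 4 group means with an intensity trend, in 1 model over 12 arrays and again over the 9 with an oocyte profile. The number of arrays limits the precision. Members and lists were chosen with earlier results of these data known.

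Genes were named where they were CNIH genes, passed the threshold, were the brightest of a class by their mean over 12 arrays, or were among the 3 smallest unadjusted p in each direction of a comparison without overlap over the 9 arrays. SNX6, the exocyst genes and retromer subunits, the steadiest and widest members and the untested examples were named after their values were seen. Each role class was described in only some of the comparisons, picked with the values known. The analysis was tested on simulated data. The alternatives covered scaling, filters, a pseudocount, array weights, the intensity trend, a replicate block, a letter in the sample titles, probe set choice and leaving out each array. The deviations of same-numbered prepubertal pools at MII and GV from their group means correlated at r = 0.609, 0.149 and 0.306. The 0.609 is that of the replicate 1 arrays, which both lack an oocyte profile. Differently numbered pools also correlated (MII 2 with GV 3, r = 0.307; MII 3 with GV 2, r = 0.145). These values do not settle whether the numbers mark pairs. The reported fits carry no block, which was fitted only as an alternative. Sequences and coordinates were not used here.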

Additional observations from a re-analysis of the deposited data

How the results depend on the processing

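Probe sets past the threshold, 0 in each comparison over 12 arrays, numbered 17 over the 9 oocyte arrays, 16 over these with quantile normalization and 96 with array weights in adult maturation, 5 with array weights in prepubertal maturation and 1 with array weights for age at GV and at MII. At an unadjusted p under 0.05 with a 2-fold change they numbered 362 for age at GV, 383 for age at MII, 492 in prepubertal maturation, 1143 in adult maturation and 174 for the interaction, and the members 7, 7, 2, 14 and 1. With 1 array left out, of the 12 or the 9, the counts ran from 0 to 2 probe sets for age at GV, 0 to 5 in prepubertal maturation and 0 to 69 in adult maturation, the highest of the last without MII adult replicate 3, and were 0 for the others. Members ran from 0 to 1 in prepubertal maturation and 0 to 2 in adult maturation, and numbered 1 in adult maturation over the 9 arrays, also with quantile normalization.

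CNIH4 changed sign in adult maturation with quantile normalization (0.25) and median centring (0.22) of the 12 arrays, and with 1 array left out ran from -3.40 to 0.79. It stood at -0.16 for age at GV over the 9 arrays and -0.48 with their median centring, with a leave-one-out range of -0.76 to 3.20, and for the interaction at 1.13 over the 9 arrays, 0.84 with quantile normalization, 1.83 with median centring, 0.68 with array weights and 0.29 as the mean of its probe sets, with a leave-one-out range of -2.25 to 1.71. CNIH1 was -0.11 for age at GV over the 9 median-centred arrays, 0.21 with quantile normalization and 0.40 with median centring in adult maturation (leave-one-out range -2.21 to 0.38), and for the interaction 0.81 over the 9 arrays, 0.81 with quantile normalization and 1.51 with median centring (leave-one-out range -1.38 to 1.27). VPS26A for age at GV was -2.50 over the 9 arrays, -3.54 with quantile normalization, -2.83 with median centring and -1.86 with array weights (leave-one-out range -4.37 to 2.26). Leave-one-out ranges also crossed 0 for RAB33B for age at GV (-8.12 to 0.16) and RAB12 for age at MII (-3.84 to 0.98). The causes were not tested.

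The replicate block over 12 arrays gave 0 calls in each comparison. The 6 prepubertal arrays were also fitted alone, an alternative added after the data were seen. There CNIH4 differed by -1.45 with the replicate block (limma adjusted p = 0.306) and without it (limma adjusted p = 0.986). The fit with the block called 0 members. Median centring moved the median of all genes in prepubertal maturation to 0.68 over the 9 arrays, against -0.13 as deposited, and in adult maturation over 12 arrays to 0.77, against -0.01. In adult maturation the class median less that of all genes lay between 0.37 and 0.94 for the RAB GTPases and between -0.91 and -0.59 for the VPS genes over the 6 scalings. With 2 or 3 pools a group, differences of the size most members showed could not be told from the spread.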

Other observations

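The 3 arrays without an oocyte profile also set members of this pathway apart, given here as values with no test. On both prepubertal replicate 1 arrays 26 of 190 members were above all 9 oocyte arrays (13.7%, beside 13.2% of genes) and 21 were below all 9 (11.1%, beside 8.49%). RAB14, a GTPase of Golgi and endosomes, read 11.31 on MII prepubertal replicate 1 and 11.81 on GV prepubertal replicate 1, against 2.86 to 6.73 on the 9 oocyte arrays. AP1M2, an adaptor subunit of epithelial cells, read 2.38 and 2.44 on the same arrays, against 7.42 to 11.15. On GV adult replicate 1, 50 members were above all 9 (26.3%, beside 34.4%) and 53 below all 9 (27.9%, beside 18.5%). RAB25, an epithelial relative of RAB11A that was too dim to be tested, read 10.17 there, against 0.80 to 5.46 on the oocyte arrays. SEC62, of the ER translocation machinery, read 4.41 there, against 11.97 to 14.71. GV adult replicate 1 correlated at most 0.27 (Spearman) with any other array, and what its values of single genes reflect was not tested. These 4 genes were chosen after their values were seen, for the widest gap in each direction on each set of arrays.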
